A study of Mus musculus with 24 samples.

Results

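The glycolysis and hypoxia response genes are 37 genes that carry glucose into the cell, break it down to pyruvate and lactate, move lactate across the membrane, or belong to the hypoxia-inducible factor (HIF) pathway. The members were chosen by name, and all 37 symbols matched 1 row each among the 47643 gene identifiers counted. The data were RNA-seq counts of dorsal root ganglion (DRG) cells, the sensory neurons whose axons supply skin and muscle. Both genotypes carried Nav1.8-Cre, which recombines in nociceptors and some other sensory neurons, and a Rosa26-ZsGreen reporter. Control mice were Tsc2 flox/+, so that Cre could remove 1 of the 2 copies of Tsc2, and Nav-Tsc2 mice were Tsc2 flox/null. Each genotype had 4 mice of a mixed C57BL/6 and AJ background aged 8 to 9 weeks, with replicates 1 and 2 male and replicates 3 and 4 female. The L4 ganglion lay opposite a sciatic nerve crushed 3 days before, and the ganglion on the side of the crush was not analysed here. From each mouse 3 libraries of 100 sorted GFP-positive cells were made, and their counts were added, so that the mouse was the replicate.

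TSC2 is a subunit of the complex that holds the kinase mTORC1 in check, and mTORC1 is known to raise translation of HIF and expression of genes for glucose uptake and glycolysis. HIF is a pair of an alpha and a beta subunit, and its alpha subunit is marked for destruction by prolyl hydroxylases when oxygen is present. Sensory neurons burn glucose through glycolysis, and their lactate is exchanged with satellite and Schwann cells through monocarboxylate transporters. All of these controls act in part on protein, which was not measured.

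Libraries held 8339220 to 34228180 reads on genes, and the sum per mouse lay between 47959617 and 61290435 reads. Tsc2 stood at 13.4, 24.7, 21.5 and 24.1 CPM (reads of a gene per 1000000 reads on genes, after TMM normalization) in control mice 1 to 4 and at 8.70, 8.51, 7.30 and 11.0 CPM in Nav-Tsc2 mice, a log2 fold change of -1.24 (SE 0.22, adjusted p = 0.0040, edgeR quasi-likelihood test). The 9 neuronal markers summed to 14497 to 17628 CPM in controls and 15478 to 17692 CPM in Nav-Tsc2 mice, with 3 called lower and 1 higher. The 5 markers of peptidergic nociceptors summed to 7201 to 17290 CPM in controls and to 2721 to 5256 CPM in Nav-Tsc2 mice, with 3 called lower. The 7 markers of nonpeptidergic nociceptors, of which 0 were called, summed to 603 and 650 CPM in the male controls and to 1673 to 2141 CPM in the other 6 mice. The part of these marker differences, between genotypes and between control mice of different sex, in the results below was not tested. In pooled cells, fewer cells of a type and less RNA per cell cannot be told apart.

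A gene was called higher or lower where its adjusted p was under 0.05 over all 17178 genes tested and its log2 fold change (Nav-Tsc2 minus control) was past 0.5 in size. Of the 37 members, 36 passed the filter on low counts; Egln3, a prolyl hydroxylase, did not, with 13 reads over all control mice and 23 over all Nav-Tsc2 mice. The called members were 11 higher (Hif1a, Adm, Ndrg1, Ero1l, Slc2a1, Slc2a3, Pfkfb3, Pgk1, Pgam1, Eno1 and Slc16a1) and 2 lower (Ldhb and Pdk1). Among all genes tested, 9.12% were called higher and 8.00% lower, against 30.6% and 5.56% of the tested members. The median log2 fold change was 0.27 over the tested members and 0.0082 over all genes. In each of the 13 called members the 4 Nav-Tsc2 mice lay wholly outside the range of the 4 controls. These members were called on the same values, and without overlap the mean difference must have the same sign in males and females. Groups that did not overlap with Nav-Tsc2 higher occurred in 16 members, against 14.6% of all genes, and with Nav-Tsc2 lower in 2 members, against 12.3%.

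**Figure D1:**
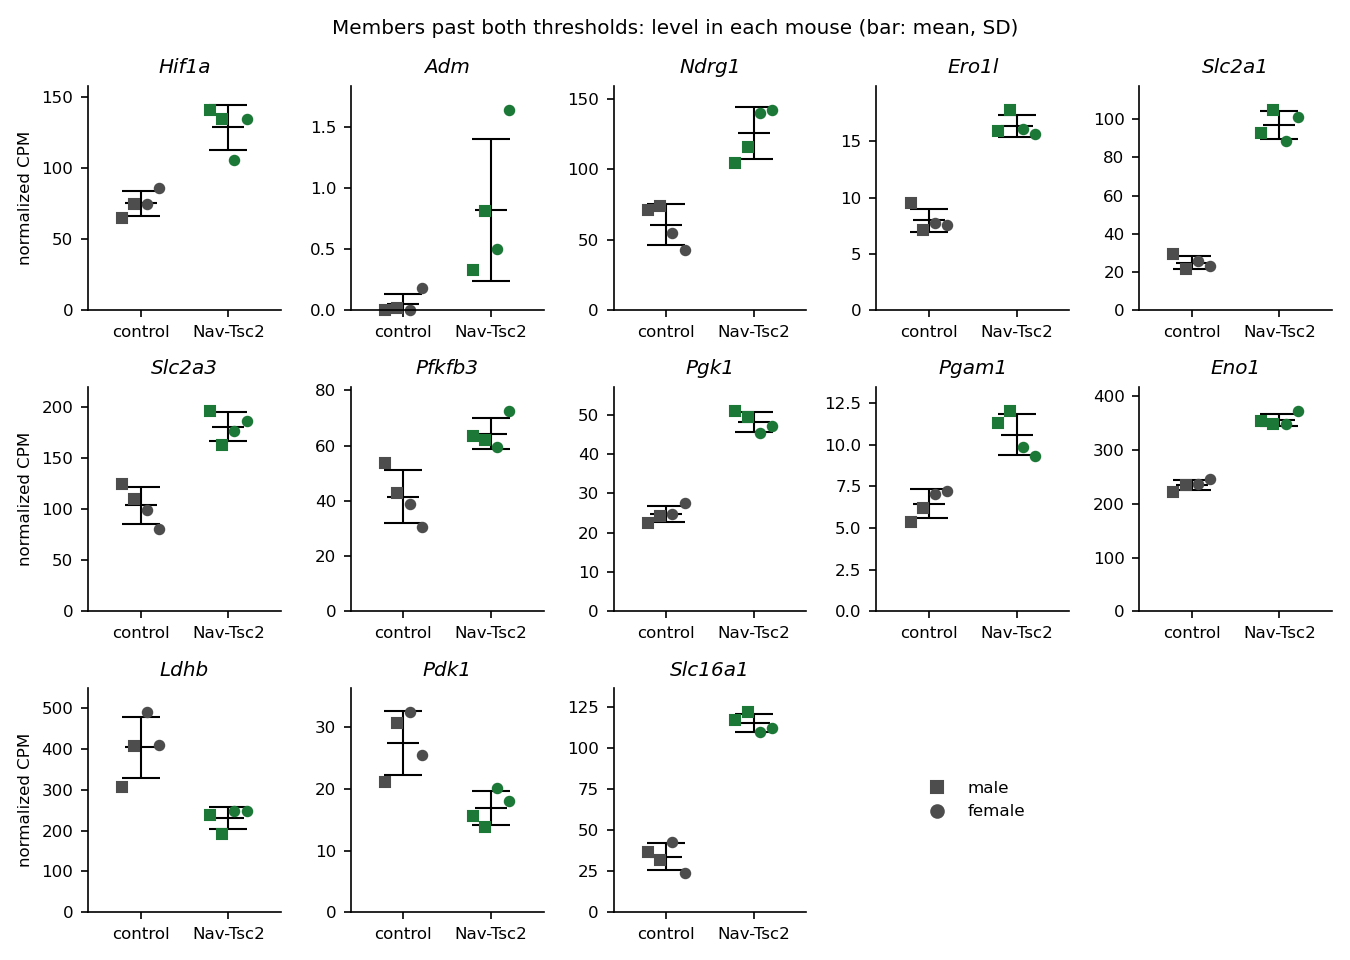
Normalized CPM (linear axes from 0) of the 13 called members in each mouse, with control in grey, Nav-Tsc2 in green, squares for males and circles for females; bars give the mean and SD of 4 mice. In every panel the 4 Nav-Tsc2 mice lie to one side of the 4 controls, below them for Ldhb and Pdk1 and above them for the other 11.

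The HIF core site is the 5-letter word ACGTG or GCGTG. A promoter was found in the RefSeq table (GRCm38.p6) for 33 members, leaving out Epas1, Ndrg1, Slc2a3 and Slc16a7. The start site used lay 1021 bases from that of the principal transcript for Vegfa, 244 for Eno1, 208 for Pkm and at most 138 for the others. For Hif1a, Pfkl, Pfkfb2, Pfkfb3, Aldoa, Aldoc, Gapdh, Ldha and Slc16a3 the whole stretch examined lay inside the annotated gene. In the 250 bases before the start site nearest to the principal transcript, ACGTG occurred on either strand in 19 of the 33 members (57.6%) and in 16.6% of the 32851 promoters in the table. GCGTG occurred in 17 members (51.5%) and in 28.2% of the table. At least one of both words was present in 38.6% of the table, in all 9 members called higher that had a promoter, in both members called lower, in 15 of the 21 that were not called, and in the untested Egln3. The palindrome CACGTG, which holds ACGTG on both strands and is also the E-box of other factors, was present in 7 members (21.2%) and in 6.02% of the table. Member promoters were richer in G and C (median 62.8%) than the promoters of the table (median 52.4%), and the part of base composition in these shares was not tested. Some members were chosen because they are known HIF targets, so a higher share of the HIF core site may be built into that choice. The part of this choice in the shares was not tested. For each member only the start site nearest to the principal transcript was used, while the table holds 32851 promoters of 27025 genes. The words are a description of the sequence and no evidence of binding.

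The stretches before the start sites are shown for the 4 members whose 12 Nav-Tsc2 libraries all lay above the 12 control libraries (Slc2a1, Slc16a1, Pgk1 and Eno1) and for the 2 members called lower. Capitals mark ACGTG or GCGTG on either strand (the other strand reads CACGT or CACGC), and each stretch is given in the direction of the gene and stops where the annotated exons begin. They lie at chr4:119108495-119108710 for Slc2a1, chr3:104638414-104638663 for Slc16a1, chrX:106186850-106187099 for Pgk1 and chr4:150236458-150236707 for Eno1, all on the plus strand, at chr6:142507958-142508207 on the minus strand for Ldhb, and at chr2:71872974-71873223 on the plus strand for Pdk1.
Slc2a1: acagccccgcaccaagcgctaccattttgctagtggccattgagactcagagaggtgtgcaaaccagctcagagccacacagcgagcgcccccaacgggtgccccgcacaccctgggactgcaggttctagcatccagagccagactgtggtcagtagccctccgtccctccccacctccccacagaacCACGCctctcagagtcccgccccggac
Slc16a1: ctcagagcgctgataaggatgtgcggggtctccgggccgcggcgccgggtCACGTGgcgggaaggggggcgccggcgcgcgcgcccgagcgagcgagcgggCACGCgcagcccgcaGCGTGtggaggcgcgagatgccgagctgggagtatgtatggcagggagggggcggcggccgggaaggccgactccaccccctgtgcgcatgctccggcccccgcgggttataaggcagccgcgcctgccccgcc
Pgk1: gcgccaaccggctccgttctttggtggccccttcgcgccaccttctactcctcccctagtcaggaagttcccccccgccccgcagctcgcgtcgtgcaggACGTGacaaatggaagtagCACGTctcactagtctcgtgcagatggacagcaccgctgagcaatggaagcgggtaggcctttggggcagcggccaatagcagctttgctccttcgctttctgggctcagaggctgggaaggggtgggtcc
Eno1: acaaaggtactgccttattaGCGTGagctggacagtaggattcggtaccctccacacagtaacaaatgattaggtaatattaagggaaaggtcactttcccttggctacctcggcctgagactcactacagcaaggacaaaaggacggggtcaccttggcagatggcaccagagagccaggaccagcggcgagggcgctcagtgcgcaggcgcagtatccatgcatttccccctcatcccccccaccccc
Ldhb: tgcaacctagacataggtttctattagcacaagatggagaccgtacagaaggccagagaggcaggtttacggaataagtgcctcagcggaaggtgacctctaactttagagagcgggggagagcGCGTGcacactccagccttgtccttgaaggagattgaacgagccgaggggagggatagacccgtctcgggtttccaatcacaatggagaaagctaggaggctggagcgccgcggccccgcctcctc
Pdk1: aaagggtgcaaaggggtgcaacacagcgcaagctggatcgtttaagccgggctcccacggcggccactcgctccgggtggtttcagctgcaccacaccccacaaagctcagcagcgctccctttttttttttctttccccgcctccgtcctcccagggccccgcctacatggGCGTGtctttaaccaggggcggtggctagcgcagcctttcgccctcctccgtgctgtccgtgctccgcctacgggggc
In Pgk1 the words stood at 150 to 146 and 131 to 127 bases before the start site, on opposite strands. Slc16a1 held the palindrome at 200 to 195 bases and GCGTG at 149 to 145 and 134 to 130 bases before the start. Slc2a1 had a further ACGTG at 36 to 32 bases before its start, which runs across the start of an annotated exon; the stretch stops there, so that only the first 2 letters of that word are printed, in lower case. Eno1, Ldhb and Pdk1 held GCGTG once each and no ACGTG.

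Both glucose transporters among the members were called higher. Slc2a1, which encodes the glucose transporter GLUT1, stood at 29.3, 21.7, 25.6 and 23.4 CPM in control mice and at 92.5, 105, 88.8 and 101 CPM in Nav-Tsc2 mice. The groups were far apart, the highest control being well below the lowest Nav-Tsc2 mouse. The fold was 3.87 (log2 1.95, SE 0.12, adjusted p = 2.0e-05, edgeR). Slc2a3, the gene of the high-affinity neuronal transporter GLUT3, stood at 124, 110, 99.1 and 80.9 CPM in controls and at 196, 163, 176 and 186 CPM in Nav-Tsc2 mice. Here too the groups did not overlap, with a smaller log2 fold change of 0.80 (SE 0.13, adjusted p = 0.0025). The level of both transporters together, in CPM per kilobase of exon, was 17.9 to 25.5 in controls and 49.6 to 54.5 in Nav-Tsc2 mice. The share of Slc2a1 in that sum was 33.5% ± 3.6 (SD, n = 4) in controls and 52.6% ± 3.3 (SD, n = 4) in Nav-Tsc2 mice. With the length of the coding transcripts in place of all exons, the share of Slc2a1 was 22.9% ± 2.8 and 39.5% ± 3.2, so that it was higher in all Nav-Tsc2 mice by either length while the order of the 2 transporters in Nav-Tsc2 mice depended on the length used.

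Slc2a1 and Slc16a1 are also well known from endothelial cells. Of 11 endothelial markers, Flt1, Ly6c1, Ly6a and Kdr were called higher (log2 7.9, 7.0, 3.9 and 2.3), with Nav-Tsc2 means of 8.56, 2.63, 5.29 and 1.76 CPM. Egfl7 and Tek were not called. Egfl7, the most abundant of the list, had a lower mean in Nav-Tsc2 mice (16.5 to 13.8 CPM, log2 -0.26). Tek had means of 0.51 CPM in controls and 0.56 CPM in Nav-Tsc2 mice. Pecam1, Cdh5, Cldn5, Tie1 and Emcn failed the filter, with group means of 0.42 CPM or less. The endothelial list summed to 14.1 to 23.2 CPM in controls and 25.6 to 44.6 CPM in Nav-Tsc2 mice. The macrophage list summed to 1.95 to 8.37 CPM in controls and 7.90 to 19.7 CPM in Nav-Tsc2 mice, with C1qa, C1qc, Ptprc, Itgam and Adgre1 below the filter and Cx3cr1 called higher. Csf1r, Aif1, Cd68 and C1qb were not called. Of these, C1qb had a lower mean in Nav-Tsc2 mice (1.75 to 0.57 CPM) and the others a higher mean. The fibroblast and pericyte list summed to 88.1 to 254 CPM in controls and 154 to 272 CPM in Nav-Tsc2 mice, with Pdgfrb and Acta2 called higher. The other 8 genes of that list were not called. Of these, Dcn (155 to 113 CPM) and Lum (1.77 to 1.27 CPM) had a lower mean in Nav-Tsc2 mice. Col1a1, Col1a2 and Col3a1 had a higher mean. The part of these cell types in the results was not tested.

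Hexokinase, which traps glucose by phosphorylation, was not called. Hk1 was the most abundant of these enzymes, at 130, 150, 133 and 120 CPM in controls and 143, 210, 117 and 133 CPM in Nav-Tsc2 mice. The groups overlapped, and the log2 fold change was 0.18 (SE 0.17, adjusted p = 0.52). Hk2, the inducible form, stood at 3.30 ± 2.30 CPM (SD, n = 4) in controls and 3.86 ± 1.69 CPM (SD, n = 4) in Nav-Tsc2 mice, and Hk1 made up 93.2% to 99.9% of the hexokinase level per kilobase in every mouse.

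Of the 6 genes around phosphofructokinase, the main control point of glycolysis, only Pfkfb3 was called. It encodes a kinase that makes fructose-2,6-bisphosphate, the strongest activator of phosphofructokinase. Pfkfb3 stood at 53.5, 42.9, 38.8 and 30.6 CPM in controls and at 63.3, 61.9, 59.5 and 72.5 CPM in Nav-Tsc2 mice. The groups were apart by a small gap, with a log2 fold change of 0.63 (SE 0.16, adjusted p = 0.021). Without Nav-Tsc2 mouse 1, 2 or 4 the adjusted p of Pfkfb3 was 0.053, 0.053 and 0.069. Its share of the PFKFB level per kilobase was 47.0% to 65.1% in controls and 66.6% to 71.4% in Nav-Tsc2 mice, with Pfkfb2 making up the rest.

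Pfkp, the platelet form of phosphofructokinase, stood at 487, 580, 550 and 560 CPM in controls and 699, 642, 627 and 643 CPM in Nav-Tsc2 mice. All Nav-Tsc2 mice were higher, but the log2 fold change of 0.26 (SE 0.08, adjusted p = 0.042) was below the fold limit. With the replicate number as a block the adjusted p of Pfkp was 0.10. Gpi1, glucose-6-phosphate isomerase, stood at 450, 453, 432 and 485 CPM in controls and at 583, 567, 522 and 579 CPM in Nav-Tsc2 mice, again with no overlap and below the fold limit (log2 0.31, SE 0.07, adjusted p = 0.016). Pfkm, the muscle form, and Pfkl, the liver form, had log2 fold changes of -0.11 and -0.01, with adjusted p of 0.52 and 0.97. Within the phosphofructokinases the share of Pfkp was 39.9% to 44.5% in controls and 46.8% to 49.1% in Nav-Tsc2 mice, and that of Pfkm was 47.0% to 52.6% and 43.4% to 44.1%. The shares of both isozymes did not overlap between genotypes. With the length of the coding transcripts, Pfkp made up 67.4% to 71.1% in controls and 72.7% to 74.9% in Nav-Tsc2 mice, and Pfkm 22.7% to 26.8% and 20.3% to 20.4%, so that which isozyme was the larger in controls depended on the length used.

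**Figure D2:**
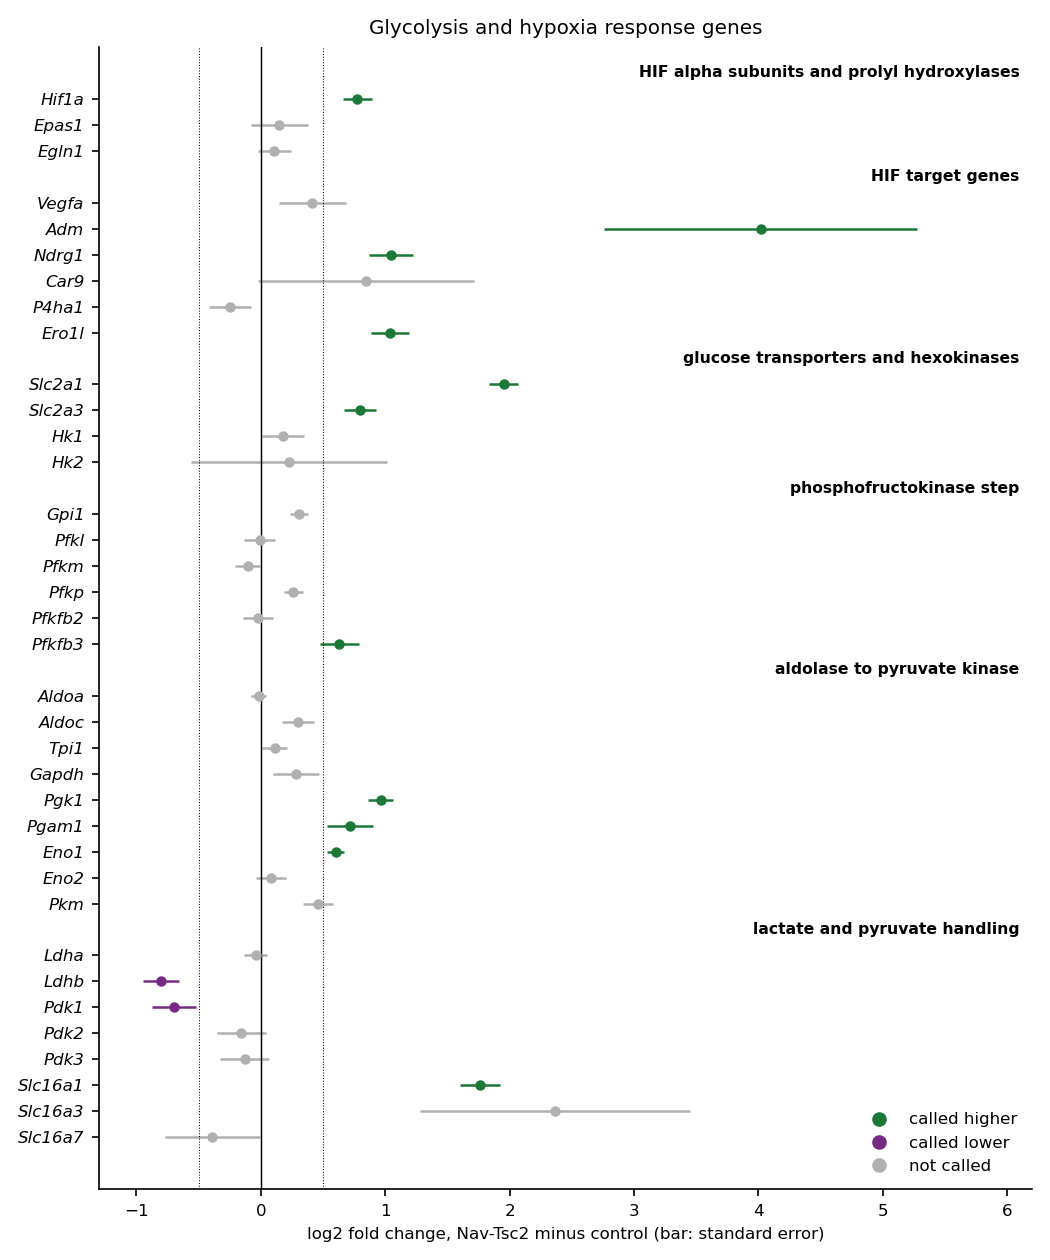
Log2 fold change (Nav-Tsc2 minus control) with its standard error for the 36 tested members, grouped by role; dotted lines mark the limit of 0.5 in either direction. Slc2a1 at 1.95 and Slc16a1 at 1.76 stand apart with narrow errors, while Adm and Slc16a3, both on few reads, have standard errors above 1.

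From aldolase to pyruvate kinase 3 of 9 members were called, all higher. Pgk1, phosphoglycerate kinase, stood at 22.5, 24.3, 24.7 and 27.5 CPM in controls and at 51.0, 49.3, 45.3 and 47.3 CPM in Nav-Tsc2 mice. The lowest Nav-Tsc2 mouse was well above the highest control, and the log2 fold change was 0.96 (SE 0.10, adjusted p = 0.00030). Eno1, the enolase of most cell types, stood at 222, 235, 236 and 245 CPM in controls and at 354, 348, 348 and 372 CPM in Nav-Tsc2 mice. Mice of a genotype lay close together and the groups far apart, with a log2 fold change of 0.60 (SE 0.07, adjusted p = 0.00041). Eno2, the enolase of neurons, stood at 526, 546, 429 and 445 CPM in controls and 540, 533, 419 and 569 CPM in Nav-Tsc2 mice. Its groups overlapped (log2 0.08, SE 0.12, adjusted p = 0.68). Eno1 thus made up 29.8% ± 3.1 (SD, n = 4) of the enolase level per kilobase in controls and 37.8% ± 2.9 (SD, n = 4) in Nav-Tsc2 mice, and the 2 ranges did not overlap.

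Pgam1, phosphoglycerate mutase, stood at 5.35, 6.19, 7.04 and 7.25 CPM in controls and at 11.3, 12.0, 9.85 and 9.31 CPM in Nav-Tsc2 mice. The groups did not overlap, and the log2 fold change was 0.72 (SE 0.18, adjusted p = 0.023). The call of Pgam1 was lost with the replicate number as a block (adjusted p = 0.075) and without control mouse 1 or Nav-Tsc2 mouse 1 or 2 (adjusted p = 0.050, 0.072 and 0.074).

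Pkm, which encodes the pyruvate kinase of neurons, stood at 1104, 1189, 860 and 919 CPM in controls and at 1594, 1296, 1290 and 1417 CPM in Nav-Tsc2 mice. The groups did not overlap, and the log2 fold change of 0.46 (SE 0.12, adjusted p = 0.023) fell short of the fold limit. Without control mouse 2 the log2 fold change of Pkm passed the limit, at 0.54, and without control mouse 4 or Nav-Tsc2 mouse 1 or 4 its adjusted p was 0.059, 0.073 and 0.063. Aldoa, the aldolase of muscle and most other tissues and the most abundant member per kilobase of exon, stood at 5510, 5565, 5130 and 5244 CPM in controls and 5347, 5275, 5257 and 5331 CPM in Nav-Tsc2 mice. Its groups overlapped fully, with a log2 fold change of -0.02 (SE 0.06, adjusted p = 0.89). Aldoc, the brain aldolase, and Tpi1, triose phosphate isomerase, had log2 fold changes of 0.30 and 0.11, with adjusted p of 0.13 and 0.48.

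Several of these enzymes have processed pseudogenes in the genome, and reads that fit more than one place were left out of the counts. Such reads made up 37.5% to 42.6% of each file, with a median of 38.6% in control and 40.6% in Nav-Tsc2 libraries. Among all 50-base windows of a member's transcripts, the share that also occurred in transcripts of another gene was 53.9% for Pgk1, 36.2% for Pgam1, 26.0% for Eno1, 25.8% for Pkm, 25.1% for Gapdh and 21.0% for Ldhb, and under 20% for every other member. The pseudogenes outside the annotation were not searched. Gapdh, one of the most abundant mRNAs of most cells, stood at only 5.11 to 6.31 CPM in controls and 6.67 to 7.15 CPM in Nav-Tsc2 mice. The ranges of Gapdh did not overlap, but its test was not passed (log2 0.29, SE 0.19, adjusted p = 0.32). Levels of these 6 members therefore leave out reads to an unknown extent and cannot be set against those of other genes, and their fold changes rest on the reads that fit 1 place. The same limit holds for the shares of Eno1 against Eno2 and of Ldhb against Ldha, since 0.14% of the windows of Eno2 and 9.26% of those of Ldha were shared. Of the genes that share windows with Eno1, Eno1b, chosen after its values were seen, also rose, from 20.6 to 30.4 CPM on average (log2 0.56, adjusted p = 0.0053), and reads of the pair cannot be fully told apart. Exons of other genes overlapped 19.5% of the exon length of Pfkfb2, 15.3% of Pkm, 11.5% of Gpi1, 10.8% of Pfkm, 9.29% of Car9, 8.43% of Ndrg1, 8.11% of Hif1a and under 6% of each other member. The overlap of Pkm was with a gene on the same strand, and for the others at least one overlapping gene lay on the opposite strand, from which the kit does not tell reads apart.

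In lactate and pyruvate handling 1 of 8 members was called higher and 2 lower. Slc16a1, the gene of the monocarboxylate transporter MCT1, stood at 36.9, 31.9, 43.0 and 24.2 CPM in controls and at 117, 122, 110 and 112 CPM in Nav-Tsc2 mice. The groups were far apart, with a fold of 3.39 (log2 1.76, SE 0.16, adjusted p = 0.00013). Slc16a3, the gene of the glycolytic transporter MCT4, was near the detection floor, at 0 to 0.38 CPM in controls and 0.47 to 1.05 CPM in Nav-Tsc2 mice. The ranges did not overlap, but the test was not passed (adjusted p = 0.16). A fit to the 24 single libraries, in which mice were a random term, gave Slc16a3 an adjusted p of 0.012. That fit estimated a correlation of only 0.063 between libraries of a mouse, and so counted them nearly as separate replicates. Slc16a3 had reads in 5 of 12 control and 10 of 12 Nav-Tsc2 libraries. Slc16a7, the gene of the neuronal transporter MCT2, had 2.63 to 6.49 CPM in controls and 2.06 to 4.18 CPM in Nav-Tsc2 mice (log2 -0.39, SE 0.38, adjusted p = 0.53). Slc16a1 made up 92.7% to 97.0% of the level of the 3 transporters per kilobase in controls and 98.1% to 99.0% in Nav-Tsc2 mice. With the length of the coding transcripts these ranges were 74.6% to 87.3% and 93.2% to 96.3%.

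Ldhb encodes the lactate dehydrogenase subunit that favours the formation of pyruvate from lactate. It stood at 305, 408, 490 and 410 CPM in controls and at 237, 192, 247 and 247 CPM in Nav-Tsc2 mice. Every Nav-Tsc2 mouse was lower than every control, and the level fell by a log2 fold change of -0.80 (SE 0.14, adjusted p = 0.0041). Ldha, whose subunit favours the formation of lactate, stood at 588, 549, 539 and 469 CPM in controls and at 575, 523, 472 and 514 CPM in Nav-Tsc2 mice. Its groups overlapped (log2 -0.04, SE 0.09, adjusted p = 0.81). The share of Ldha in the summed level per kilobase was 39.1% ± 6.1 (SD, n = 4) in controls and 51.8% ± 3.9 (SD, n = 4) in Nav-Tsc2 mice, and these ranges touched, since the highest control was at 47.8% and the lowest Nav-Tsc2 mouse at 47.6%. With the length of the coding transcripts the share of Ldha was 52.4% ± 6.3 and 64.9% ± 3.6, so that the order of both subunits in controls also depended on the length used. The summed level itself was 372 to 475 CPM per kilobase in controls and 281 to 325 in Nav-Tsc2 mice.

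**Figure D3:**
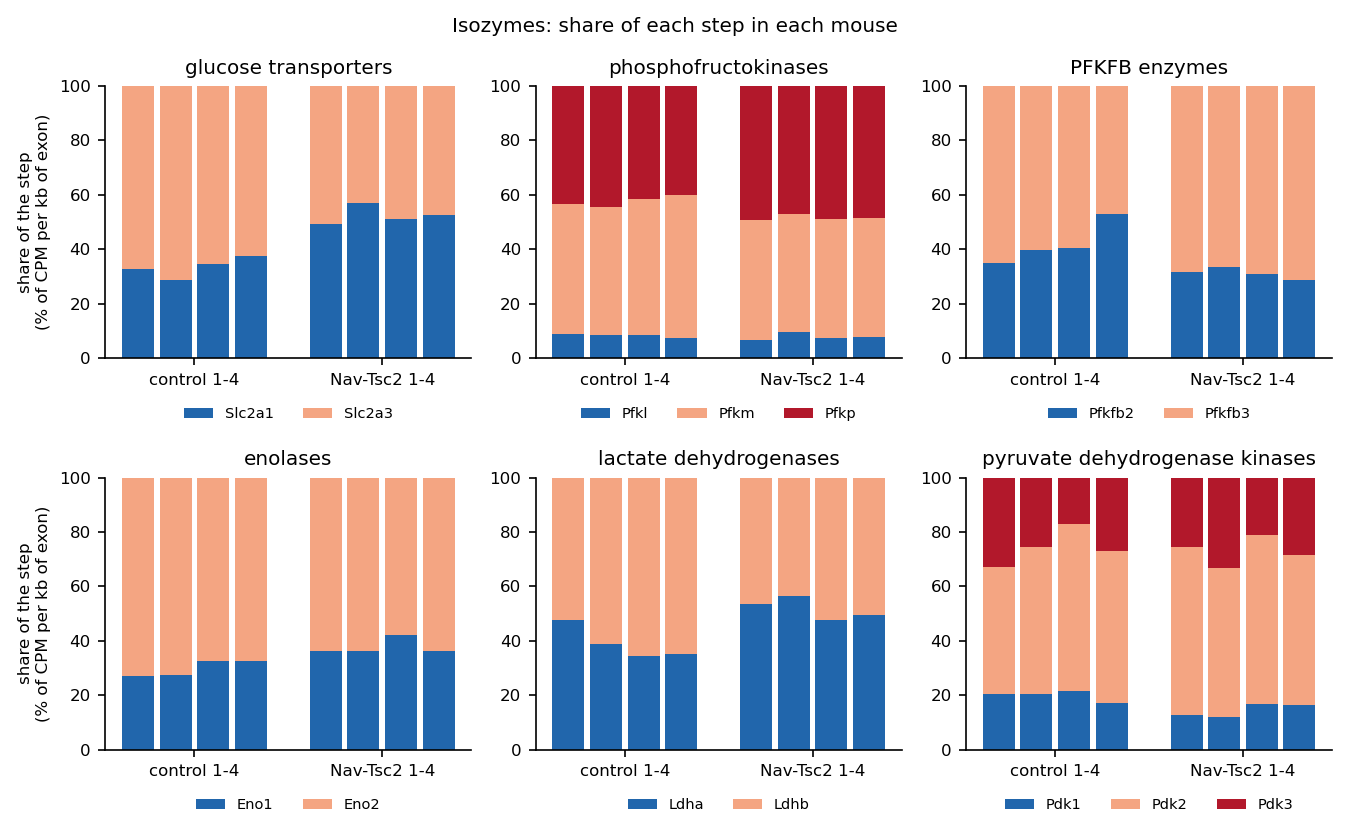
Share of each isozyme (percent of the step's summed CPM per kilobase of exon) in each of the 8 mice, for 6 steps. The blue part of the bar is larger in all 4 Nav-Tsc2 mice than in any control for Slc2a1 and Eno1, while for Ldha the 2 ranges touch at about 47.6% to 47.8%.

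The pyruvate dehydrogenase kinases switch off the enzyme complex that feeds pyruvate into the mitochondria. Pdk1, a classical HIF target, stood at 21.1, 30.6, 32.5 and 25.5 CPM in controls and at 15.7, 13.9, 20.1 and 18.0 CPM in Nav-Tsc2 mice. The groups did not overlap, but lay close to each other, and the log2 fold change was -0.70 (SE 0.18, adjusted p = 0.021). The call of Pdk1 was lost without control mouse 2 and without Nav-Tsc2 mouse 1 or 2 (adjusted p = 0.052, 0.068 and 0.059). Pdk2 and Pdk3 had log2 fold changes of -0.16 and -0.13 with adjusted p of 0.63 and 0.70. Pdk2 was the most abundant of the 3 per kilobase, with 46.6% to 61.8% of their summed level in every mouse.

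Among the HIF subunits and their hydroxylases only Hif1a was called. Hif1a encodes the main oxygen-regulated subunit, and stood at 64.8, 75.1, 74.9 and 85.7 CPM in controls and at 141, 135, 105 and 134 CPM in Nav-Tsc2 mice. All Nav-Tsc2 mice were higher than all controls, with a log2 fold change of 0.78 (SE 0.12, adjusted p = 0.0019). Epas1, the gene of HIF-2 alpha, stood at 14.5 ± 4.7 CPM (SD, n = 4) in controls and 16.1 ± 2.0 CPM (SD, n = 4) in Nav-Tsc2 mice, and Egln1, the main prolyl hydroxylase, at 27.6 ± 2.7 and 29.7 ± 4.2 CPM. Their log2 fold changes were 0.15 and 0.11 with adjusted p of 0.71 and 0.63.

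The 6 HIF target genes with no role in glycolysis were uneven. Ndrg1, a stress-induced gene that is also expressed by Schwann cells, stood at 70.9, 74.1, 54.9 and 42.9 CPM in controls and at 104, 116, 140 and 142 CPM in Nav-Tsc2 mice. The groups did not overlap (log2 1.05, SE 0.18, adjusted p = 0.0033). The satellite and Schwann cell list, which holds 14 markers, summed to 2976 to 3134 CPM in controls and to 1991 to 2558 CPM in Nav-Tsc2 mice. Of its genes S100b was called lower, with means of 939 and 98.6 CPM, and the other 13 were not called. Ero1l, an oxidase that forms disulfide bonds in the endoplasmic reticulum, stood at 9.52, 7.12, 7.72 and 7.55 CPM in controls and at 16.0, 17.8, 16.1 and 15.6 CPM in Nav-Tsc2 mice. Its groups were far apart (log2 1.04, SE 0.15, adjusted p = 0.0015).

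Adm, the gene of the vasodilator adrenomedullin, was called higher on very few reads. It had 10 reads over all control mice, with 0 in mice 1 and 3, and 190 reads over all Nav-Tsc2 mice. In CPM it was 0, 0.019, 0 and 0.18 in controls and 0.33, 0.81, 0.51 and 1.64 in Nav-Tsc2 mice, and reads were found in 2 of 12 control and 11 of 12 Nav-Tsc2 libraries. The log2 fold change of 4.02 (SE 1.26, adjusted p = 0.048) was just past the threshold. The call of Adm was lost without control mouse 1, 2 or 3 (adjusted p = 0.088, 0.11 and 0.075), without Nav-Tsc2 mouse 1, 2, 3 or 4 (adjusted p = 0.081, 0.10, 0.082 and 0.13), and without the filter on low counts (adjusted p = 0.072).

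Vegfa, the vascular growth factor and the best known HIF target, stood at 16.7, 12.8, 7.85 and 8.74 CPM in controls and at 13.4, 13.2, 13.6 and 21.2 CPM in Nav-Tsc2 mice. The groups overlapped (log2 0.41, SE 0.27, adjusted p = 0.33). Car9, a carbonic anhydrase, had 1.49 ± 1.03 CPM (SD, n = 4) in controls and 2.68 ± 0.96 CPM (SD, n = 4) in Nav-Tsc2 mice (adjusted p = 0.55). The fit to single libraries, which counts them nearly as separate replicates, gave Car9 an adjusted p of 0.0038. Car9 had reads in 5 of 12 control libraries and in all 12 Nav-Tsc2 libraries. P4ha1, a collagen hydroxylase, had 27.5 ± 6.2 and 23.2 ± 1.7 CPM (log2 -0.25, adjusted p = 0.34).

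A difference in response between the sexes was tested as the interaction of genotype with sex. No member had an adjusted p under 0.05 in edgeR (the lowest was 0.23), against 0.00582% of all genes. An unadjusted p under 0.05 was found in 2 of 36 tested members and in 1583 of 17178 genes tested. The lowest adjusted p of a member belonged to Ndrg1. The mean log2 CPM of Ndrg1 was higher by 0.60 in male and by 1.54 in female Nav-Tsc2 mice than in controls of the same sex. With DESeq2 in place of edgeR, and with edgeR without the filter on low counts, the interaction of Ndrg1 passed, with adjusted p of 0.0059 and 0.0074, and it was then the 1 member that did.

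Single libraries of 100 cells varied more than the sums of 3 libraries per mouse. Summing lowers the spread by itself, so these values do not show that mice differ less than libraries. Over the 36 tested members the SD of log2 CPM had a median of 0.37 between libraries of a mouse and 0.19 between the summed values of mice of a genotype. For Slc2a1 the 12 control libraries ran from 11.0 to 35.9 CPM with a median of 25.8, and the 12 Nav-Tsc2 libraries from 72.8 to 139 CPM with a median of 92.0. Eno1 ran from 207 to 258 CPM over control and from 338 to 413 CPM over Nav-Tsc2 libraries. The same separation of all 12 from all 12 libraries was found for Slc16a1 and Pgk1. Ldhb was less even, since control libraries spread from 136 to 726 CPM with a median of 361, and Nav-Tsc2 libraries from 175 to 274 CPM with a median of 241.

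**Figure D4:**
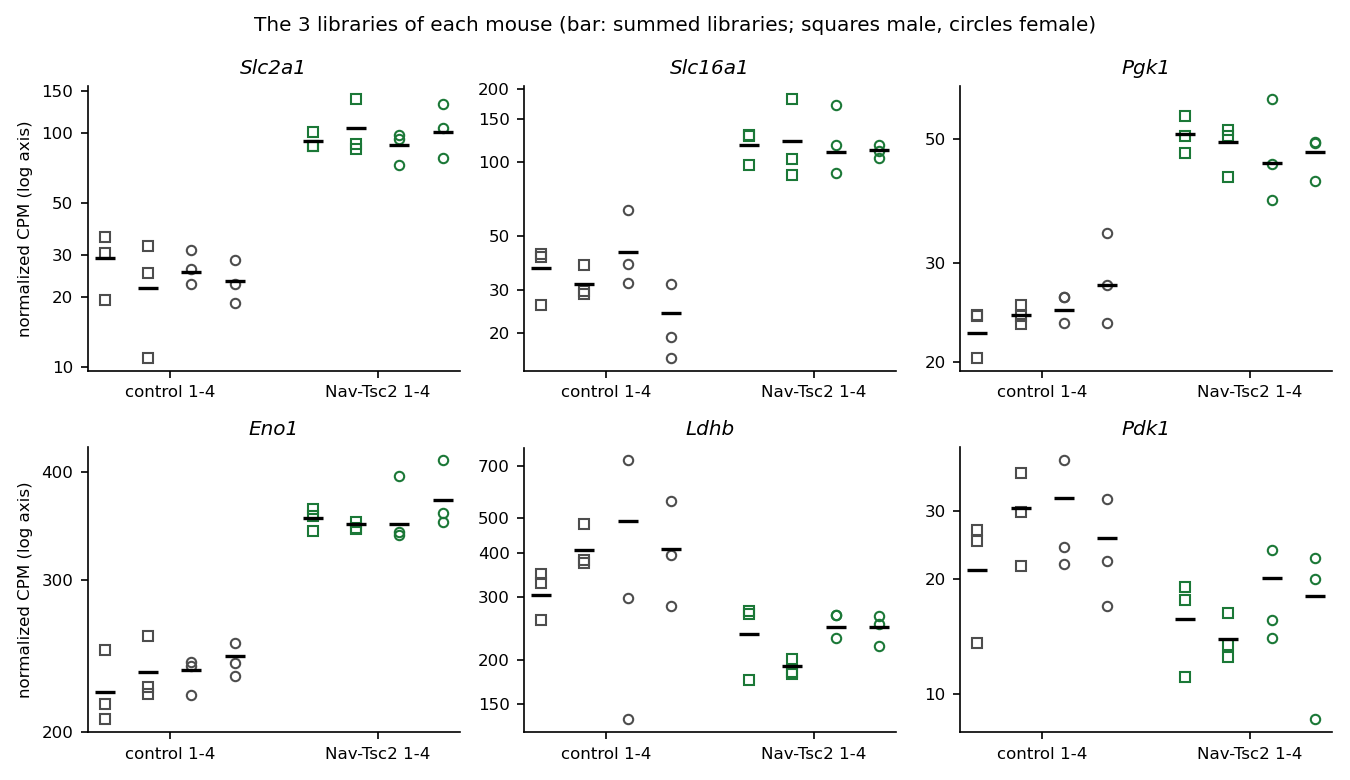
Normalized CPM (log axis) of 6 members in each of the 24 libraries, in columns by mouse, with a bar at the value of the summed libraries. Control and Nav-Tsc2 libraries do not overlap for Slc2a1, Slc16a1, Pgk1 and Eno1, while libraries of Ldhb and Pdk1 do.

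The remaining genes of these pathways were followed in 7 lists with 140 genes, of which 126 were tested, 19 were called higher (15.1%) and 9 lower (7.14%). Among all genes tested these shares were 9.12% and 8.00%, against which each list below is to be read. Among other glycolytic isozymes and regulators 2 of 14 tested genes were higher and 2 lower. Bpgm, which diverts a glycolytic intermediate to bisphosphoglycerate, fell from 36.5 ± 4.4 to 16.0 ± 3.6 CPM (SD, n = 4; log2 -1.19, adjusted p = 0.0014), and Adpgk, an ADP-dependent glucokinase, rose from 11.2 ± 0.9 to 16.1 ± 1.3 CPM (SD, n = 4; log2 0.52, adjusted p = 0.026), a call lost under 8 of 16 alternatives. The replicate block was one of them (adjusted p = 0.074), as was leaving out control mouse 2 or 4 or Nav-Tsc2 mouse 1, 2 or 4 (adjusted p of Adpgk 0.056, 0.050, 0.071, 0.082 and 0.073).

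Of 14 other sugar and monocarboxylate transporters tested, 2 were higher and 1 lower. Slc2a6, a sugar transporter of lysosomes, stood at 48.6, 46.6, 72.8 and 80.9 CPM in controls and at 128, 117, 110 and 121 CPM in Nav-Tsc2 mice (log2 0.93, SE 0.18, adjusted p = 0.0057). Slc16a6 fell (log2 -1.75, SE 0.53, adjusted p = 0.042), but its groups overlapped and the call was lost in 7 alternatives. Those were the fit to single libraries (adjusted p = 0.18) and leaving out control mouse 1, 3 or 4 (0.068, 0.064 and 0.097) or Nav-Tsc2 mouse 1, 2 or 3 (0.094, 0.10 and 0.071).

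Among genes for the entry of pyruvate into mitochondria and for NADH shuttles, 1 in each list was called higher and 0 lower, against 9.12% and 8.00% of all genes. At any fold 3 of 12 and 3 of 10 had an adjusted p under 0.05, against 21.1% of all genes. Pdk4, the kinase induced by fasting and fatty acids, stood at 0.69, 0.74, 0.74 and 0.28 CPM in controls and at 3.79, 6.00, 8.18 and 14.7 CPM in Nav-Tsc2 mice (log2 3.73, SE 0.51, adjusted p = 0.0010). It was the 1 gene called among 12 for mitochondrial pyruvate entry. Got1, the cytosolic aspartate aminotransferase of the malate-aspartate shuttle, rose from 216 ± 11 to 419 ± 52 CPM (SD, n = 4; log2 0.96, adjusted p = 0.00027) and was the 1 of 10 shuttle genes called. In glycogen metabolism and gluconeogenesis 3 of 25 tested genes were lower and 0 higher. Pygb, the brain glycogen phosphorylase, fell from 308 ± 49 to 137 ± 11 CPM (SD, n = 4; log2 -1.16, adjusted p = 0.00027).

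Partners and degraders of HIF were called higher in 3 and lower in 2 of 15 tested genes (20% and 13.3%, against 9.12% and 8.00% of all genes). Cited2, which competes with HIF for its coactivators, stood at 4.95, 4.30, 4.54 and 3.59 CPM in controls and at 26.5, 21.4, 24.4 and 27.6 CPM in Nav-Tsc2 mice (log2 2.52, SE 0.16, adjusted p = 2.5e-05). Tceb1, elongin C of the ubiquitin ligase that degrades HIF alpha, was called lower right at the fold limit, with a log2 value of -0.50 and an adjusted p of 0.0045. Leaving out control mouse 2 or Nav-Tsc2 mouse 1 or 2 brought the log2 fold change of Tceb1 inside the limit (-0.474, -0.483 and -0.449). Of 36 further HIF targets tested, 10 were higher (27.8%, against 9.12% of all genes) and 1 lower (2.78%, against 8.00%). Tfrc, the transferrin receptor, rose from 71.4 ± 6.6 to 137 ± 9 CPM (SD, n = 4; log2 0.94, adjusted p = 0.00021). Bnip3, a mitophagy receptor, fell from 261 ± 20 to 155 ± 13 CPM (SD, n = 4; log2 -0.75, adjusted p = 0.00050).

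**Figure D5:**
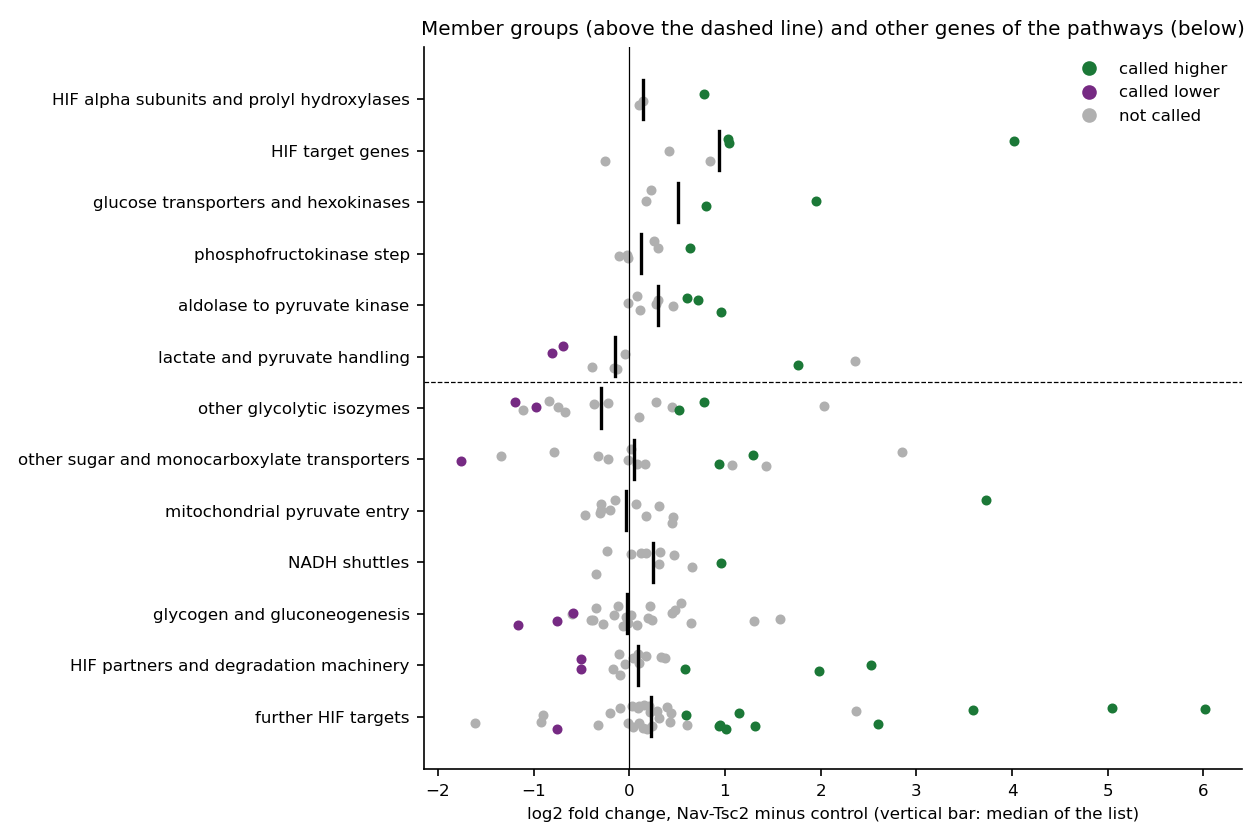
Log2 fold change (Nav-Tsc2 minus control) of every tested gene in the 6 member groups (above the dashed line) and the 7 other pathway lists (below), each with its median as a bar. The medians run from -0.30 for other glycolytic isozymes to 0.94 for the HIF target genes among the members, and called genes lie on both sides of 0 in 4 of the 7 lower lists and in lactate and pyruvate handling.

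By member group the medians were 0.94 for HIF target genes (3 of 6 higher), 0.51 for glucose transporters and hexokinases (2 of 4 higher), 0.30 for aldolase to pyruvate kinase (3 of 9 higher), 0.15 for HIF alpha subunits and prolyl hydroxylases (1 of 3 tested higher), 0.13 for the phosphofructokinase step (1 of 6 higher) and -0.14 for lactate and pyruvate handling (1 of 8 higher, 2 lower). With the fold limit removed, 14 of 36 tested members passed higher and 2 lower. Of the 17178 genes tested, 1862 passed higher and 1757 lower, and 21.1% passed in either direction. The added 3 members were Gpi1, Pfkp and Pkm. Without Nav-Tsc2 mouse 1 the adjusted p of all 3 was above 0.05, at 0.054 for Gpi1, 0.12 for Pfkp and 0.073 for Pkm. For Pkm it was also above 0.05 without control mouse 4 or Nav-Tsc2 mouse 4, and for Pfkp without any one mouse other than control mouse 2 (0.057 to 0.12).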

How the data were processed

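RNA of sorted GFP-positive L4 DRG cells from 8 mice was sequenced in 24 libraries. The authors deposited raw read counts per gene, made per the labels with FastQC, STAR and HTSeq on mm10, and the versions, annotation release and strand setting are not given in the sources used here. Reads that fitted several places, fell outside genes or were ambiguous were left out of library sizes. The deposited series table of the authors' own means, fold changes and p-values was not used. The 3 libraries of each mouse were summed, and the sums tested with edgeR 4.0.16 (filterByExpr, TMM, quasi-likelihood test, R 4.3.3), with Benjamini-Hochberg adjustment over 17178 genes, and the script was tested on simulated data. CPM are TMM-normalized. DESeq2 1.42.0 and limma 3.58.1 were used in alternatives. The limma fit to the 24 libraries estimated a correlation of 0.063 between libraries of a mouse, so that libraries counted nearly as separate replicates. Deviations of same-numbered mice from their group means correlated at 0.18, 0.19, 0.11 and 0.20 over 8445 genes, while other pairs of the same sex gave 0.063 to 0.20. All tests given are without the pairing unless the replicate block is named, and the blocked fit is an alternative. The members and lists were chosen with earlier results of these data known. Named were all members, Tsc2 and, in each pathway list, the called gene with the smallest adjusted p in each direction.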

Additional observations from a re-analysis of the deposited data

Results flagged for a closer look

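In 72 groups of 4 mice (each tested member in each genotype) 1 mouse stood far from the other 3 in 2 groups, against 3.6 expected by chance at 1 in 20. Vegfa was at 21.2 CPM in Nav-Tsc2 mouse 4, a female, and at 13.2 to 13.6 CPM in the other Nav-Tsc2 mice. Adm was at 0.18 CPM in control mouse 4 and at 0 to 0.019 CPM in the other controls, on 10 reads over all controls.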

How the results depend on the processing

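Across 16 alternative fits, the members called higher numbered 10 to 13 in the fits of all mice and 8 to 11 when 1 mouse was left out, and those called lower 2 and 1 to 2 (1 without control mouse 2 or Nav-Tsc2 mouse 1 or 2). At an adjusted p under 0.01, 8 were higher and 1 lower. With the replicate block 10 members were higher and 2 lower, the median of the glucose transporter and hexokinase group was 0.69, and no call changed among the named genes other than those of Pgam1 and Adpgk. That median was 1.02 when the 24 libraries were fitted with the mouse as a random effect, a fit that moved the median of all genes to 0.14, and 0.41 to 0.71 when 1 mouse was left out. The median of the HIF alpha and hydroxylase group was 0.46 without the filter on low counts, since Egln3 then enters, and 0.047 to 0.33 when 1 mouse was left out; that of aldolase to pyruvate kinase was 0.25 to 0.38. The interaction with sex had 1 member, Ndrg1, under DESeq2 and 1 without the filter, and the cause was not tested. Pathway genes called lower numbered 5 to 10 when 1 mouse was left out (5 without control mouse 2 or Nav-Tsc2 mouse 2), and those called higher 28 in the fit to single libraries and 15 with the block, against 19. Signs turned only in uncalled genes when 1 mouse was left out, in Ldha (log2 -0.10 to 0.0056), Pfkl (-0.14 to 0.048), Aldoa (-0.046 to 0.0012), Hk2 (-0.17 to 0.59), Pfkfb2 (-0.081 to 0.061) and Hk1 (-0.030 to 0.28). Of 768 refits of single named genes 716 kept direction and side of the threshold, 36 lost it, 3 gained it and 13 turned. Of 23 isozyme shares 21 differences moved by less than the SD between mice with coding transcript lengths, a choice made after seeing the data. Adm, Slc16a3 and Egln3 rest on few reads, and Car9 and Hk2 varied widely between libraries of a mouse (Car9 0 to 4.83 CPM in control mouse 1, Hk2 0.30 to 13.6 CPM in Nav-Tsc2 mouse 4).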
